A study of Mus musculus with 3 samples.

Results

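The genes described here are 43 genes of DNA replication and of the step from G1 into S phase, chosen by name. All single-gene probe sets of these genes were read, and 42 of the 43 had at least 1 (Chaf1a had none), among 18193 genes measured in all. The samples were 3 cultures of immortalized lymphatic endothelial cells (imLECs) from mouse skin, 1 each at passages 13, 14 and 18. All came from H-2Kb-tsA58 ImmortoMice, described as normal and healthy, and were isolated by FACS, per the labels. H-2Kb is an interferon-inducible promoter and tsA58 a temperature-sensitive SV40 large T antigen, so every culture carried the same immortalizing transgene, and no culture without it was part of the set. The cells were grown at 33 °C with interferon-gamma at 1 unit/ml and then held for 3 days at 37 °C without it, a step that by the labels' protocols was meant to rid them of T antigen. The labels do not name the animals, and each passage is 1 culture, so differences between passages have no replicate and any p-value measures only the spread among these 3 cultures.

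Replication starts when the origin recognition complex, with CDC6 and CDT1, loads the ring of MCM2 to MCM7 onto DNA in G1. In S phase CDC45 and the GINS complex turn that ring into a running helicase, and polymerases, clamp and clamp loader copy the strands while ribonucleotide reductase and thymidylate synthase supply nucleotides. Most genes of this machinery are transcribed under E2F factors, which the retinoblastoma family holds back until cyclin E and its kinase act. SV40 large T antigen binds the retinoblastoma proteins, which is one way it drives cells into S phase.

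To show the regulatory letters these genes share, their promoters were searched in RefSeq windows of assembly GRCm38.p6, which run from 250 bases before the transcription start to 50 after. Windows were found for 36 of the 43 genes. An E2F match was any of TTTCCCGC, TTTGGCGC, TTTCGCGC and TTTGCCGC on either strand, and matches may overlap each other. Such a match stood in the windows of 13 of the 36 genes (36.1%), against 2.61% of all 27025 genes with a window and 4.94% of the 8083 that are also expressed above the filter used below. The stretches shown are those of the 9 members with a match wholly before the start, each with up to 25 bases on either side, written 5′ to 3′ on the gene's strand. Capitals mark the matched letters. A match on the other strand reads as its reverse complement, for example GCGGGAAA for TTTCCCGC.
Orc1, chr4:108579402-108579453, plus strand: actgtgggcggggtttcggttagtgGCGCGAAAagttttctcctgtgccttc
Cdc6, chr11:98907988-98908045, plus strand: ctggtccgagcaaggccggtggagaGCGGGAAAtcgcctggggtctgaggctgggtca
Mcm5, chr8:75109331-75109392, plus strand: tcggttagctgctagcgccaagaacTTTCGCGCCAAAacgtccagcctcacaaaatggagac
Mcm6, chr1:128359720-128359840, minus strand: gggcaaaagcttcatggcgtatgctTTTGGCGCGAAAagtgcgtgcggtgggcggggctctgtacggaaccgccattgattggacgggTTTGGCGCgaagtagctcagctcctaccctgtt
Mcm7, chr5:138172016-138172073, minus strand: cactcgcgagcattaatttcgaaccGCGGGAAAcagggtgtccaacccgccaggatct
Gins3, chr8:95633493-95633550, plus strand: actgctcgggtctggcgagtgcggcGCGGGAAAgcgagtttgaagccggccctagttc
Rfc3, chr5:151651209-151651243, minus strand: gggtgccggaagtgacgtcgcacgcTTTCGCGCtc
Pola1, chrX:93632261-93632318, minus strand: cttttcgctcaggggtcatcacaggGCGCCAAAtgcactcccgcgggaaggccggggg
Uhrf1, chr17:56304103-56304160, plus strand: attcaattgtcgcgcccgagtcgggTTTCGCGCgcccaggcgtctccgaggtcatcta
In Mcm5 and in the distal site of Mcm6, matches on both strands overlap into 1 palindrome-like block. Mcm6 held 3 matches in its window, the most of any member. The other members with a match, Cdt1, Mcm3, Pold1 and Lig1, have theirs after the start.

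**Figure D1:**
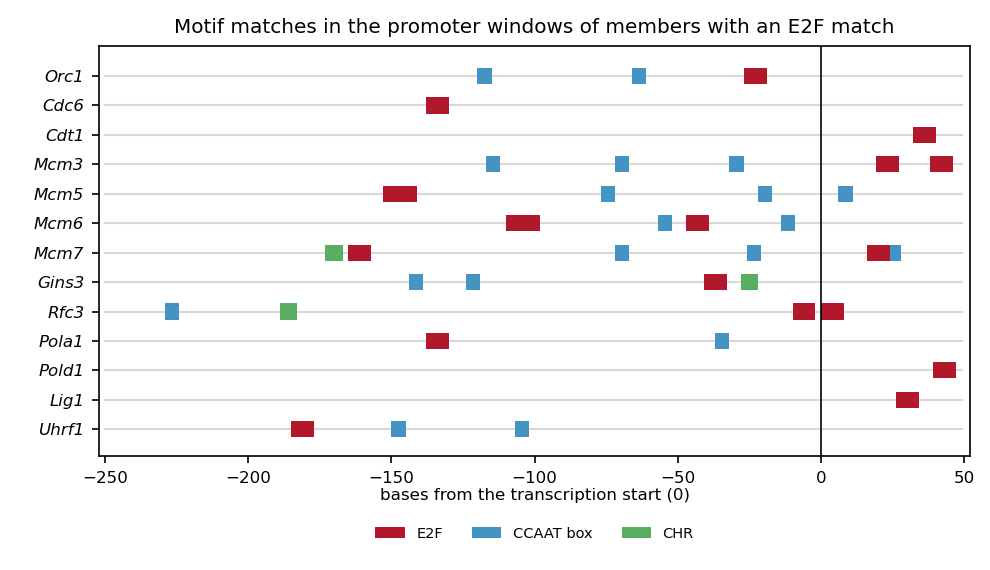
Positions of motif matches, in bases from the transcription start, in the promoter windows of the 13 members with an E2F match. Red bars are E2F matches, blue bars CCAAT boxes and green bars the CHR letters TTTGAA or TTCGAA; E2F matches lie on both sides of the start, and Mcm6 carries 3 of them.

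The same windows were searched for CCAAT, the letters of the NF-Y box, and for TTTGAA or TTCGAA, the letters of the cell cycle homology region (CHR) found in promoters of mitotic genes. CCAAT stood in 22 of 36 member genes (61.1%), against 41.1% of all genes with a window and 43.5% of those above the filter. The CHR letters stood in 6 members, Mcm2, Mcm7, Cdc45, Gins3, Rfc3 and Fen1 (16.7%), against 21.7% of all genes and 15.8% of those above the filter. Of 14 mitosis and G2/M genes, 1 had E2F letters in its window (7.14%), 12 had CHR letters (85.7%) and 13 had CCAAT (92.9%). These are shares of letters in a window, not of bound sites.

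Nearly all members were expressed. A gene was called detected when it exceeded a floor on every array. The floor was set at the 95th percentile of 49 genes of other tissues, such as liver, retina and testis, and was 5.34, 5.49 and 5.48 on the log2 intensity scale at passages 13, 14 and 18. Of the 42 members, 41 were detected on all 3 arrays, where 51.1% of all genes were. Orc1, the subunit of the origin recognition complex that comes and goes with the cell cycle, was the exception: its brighter probe set read 5.12, 5.21 and 4.62 at passages 13, 14 and 18, below the floor each time, which sets only an upper limit on its transcript. Levels below are log2 signal intensities of each gene's brightest probe set, always in the order passage 13, 14, 18.

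The passage 14 culture had the highest level of most members. Of the 41 members whose mean lay above the mean floor, 38 were higher at passage 14 than at 13, where 48.1% of the 9884 genes above that filter were, and 32 had their highest of the 3 levels at passage 14, where 36.4% of all did. The steps were small: the median difference of passage 14 minus 13 was 0.49 on the log2 scale over members and -0.01 over all genes tested, and 4 members (Tk1, Uhrf1, Mcm10 and Gins1) were at least 2-fold higher, where 2.37% of all were. At least 2-fold lower at passage 14 than at 13 were 0 members (4.06% of all). From passage 14 to 18 the median member difference was -0.55, against 0.01 over all genes; 33 members were lower at passage 18, where 48.7% of all were, and 8 (Tk1, Mcm10, Uhrf1, Gins1, Cdc6, Chaf1b, Tyms and Rfc3) were at least 2-fold lower, where 6.0% of all were. At least 2-fold higher at 18 than at 14 were 0 members (7.7% of all). The median member difference of passage 18 minus 13 was -0.06, with a range from -1.36 for Tk1 to 0.63 for Cdt1. At passage 18, 25 members were lower than at 13 and 16 higher, where 51.2% of all genes were lower. Tk1 was the 1 member at least 2-fold lower at passage 18 than at 13 (2.67% of all), and 0 were at least 2-fold higher (2.92% of all). With each gene read as the median of its probe sets in place of the brightest, the 2-fold counts were 2 in place of 4 and 4 in place of 8. The comparisons of passage 14 with 13 and with 18 share the passage 14 array, so they are not independent of each other. In a bulk culture, fewer cells in S phase and less transcript per cell cannot be told apart.

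**Figure D2:**
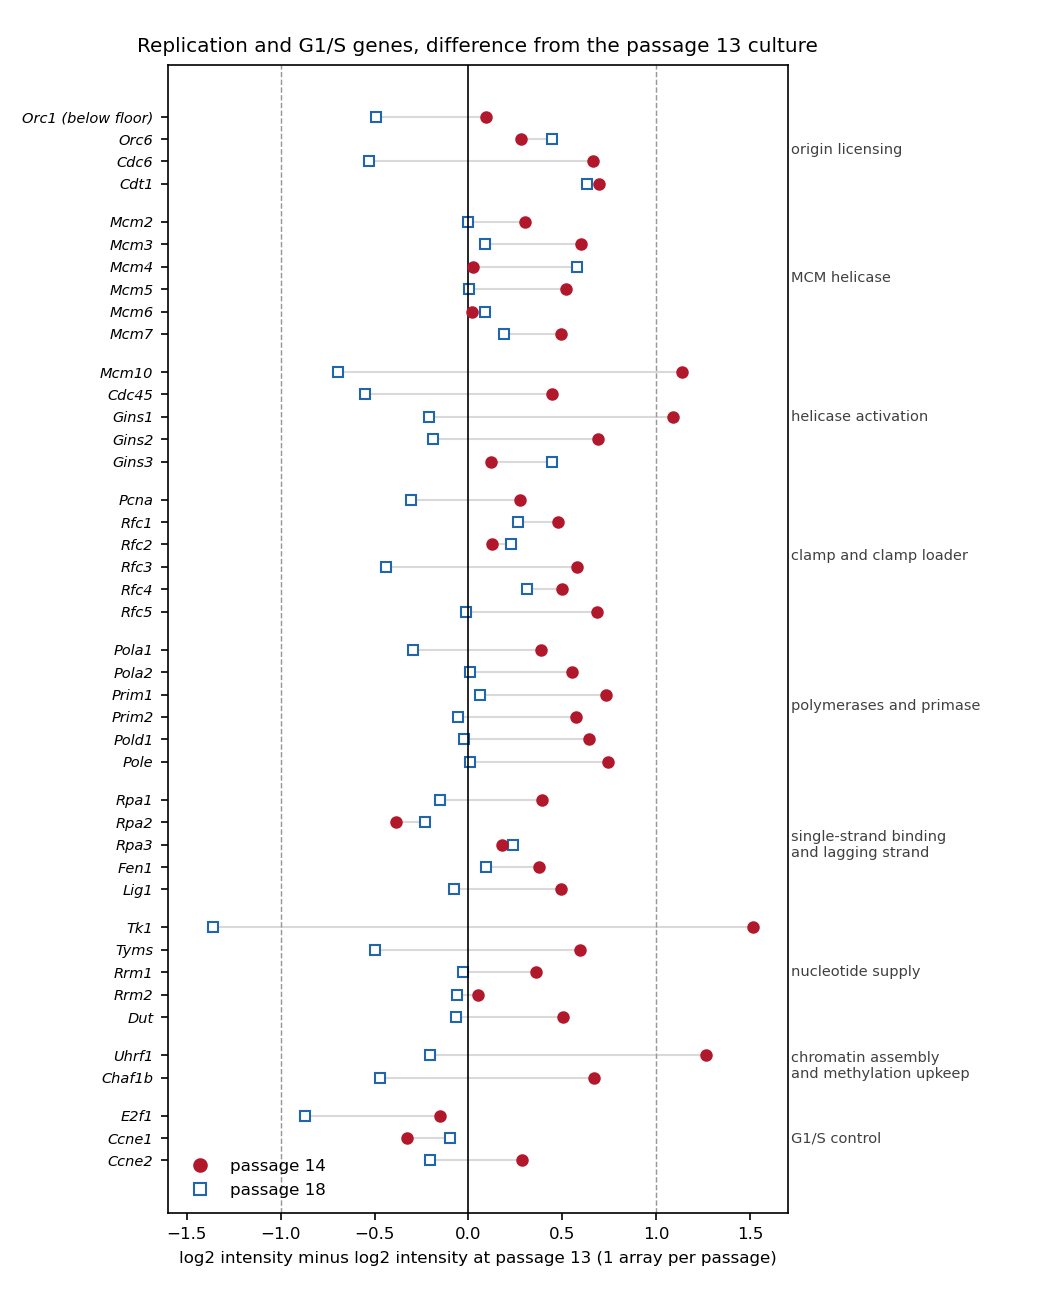
Difference of log2 intensity from the passage 13 culture for the 42 measured members, grouped by role, with passage 14 as red circles and passage 18 as open blue squares (1 array per passage, so no error bar; dashed lines mark a 2-fold difference). Passage 14 lies right of 0 for all but Rpa2, E2f1 and Ccne1, and Tk1 spans the widest interval.

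By order of the 3 levels of the brightest probe sets, 22 of 41 members (53.7%) ran from lowest at passage 18 through 13 to highest at 14. That order was held by 25.8% of all genes tested. For some members the order of passages 18 and 13 depended on the probe set, as given below. Another 10 (24.4%) were lowest at 13 and highest at 14: Cdt1, Mcm3, Mcm5, Mcm7, Rfc1, Rfc4, Pola2, Prim1, Pole and Fen1 (10.6% of all). A further 6, Orc6, Mcm4, Mcm6, Gins3, Rfc2 and Rpa3, increased in the order 13, 14, 18 (12.1% of all). Rpa2 and Ccne1 were lowest at 14 and highest at 13, and E2f1 was lowest at 18 and highest at 13. No member was lowest at 14 and highest at 18, the order of 26.0% of all genes.

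Among the licensing factors, Cdc6, the ATPase that helps load the MCM ring, read 7.45, 8.12 and 6.92. Passage 14 was 1.59-fold above passage 13, and passage 18 was 2.29-fold below passage 14. Cdt1, the MCM chaperone that is degraded once S phase begins, read 9.38, 10.07 and 10.01, so by this probe set it stayed near its passage 14 level at passage 18, 1.55-fold above passage 13. Its second detected probe set read 6.87, 7.30 and 6.85, 1.36-fold lower at passage 18 than at 14. Orc6, the smallest subunit of the origin complex, read 9.80, 10.08 and 10.25. Orc6 was thus highest at passage 18, Cdc6 lowest there, and Cdt1 depended on the probe set.

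By their brightest probe sets, the MCM helicase subunits differed by less than 2-fold between any pair of arrays. Mcm2 read 8.57, 8.87 and 8.57, Mcm3 9.92, 10.52 and 10.01, and Mcm5 9.99, 10.52 and 10.00. By these probe sets each of the 3 was highest at passage 14 and nearly equal in the other arrays. A second Mcm2 probe set read 8.48, 8.59 and 8.79, highest at passage 18 and 1.24-fold above 13. Mcm7 read 11.28, 11.77 and 11.47 and was likewise highest at 14. Mcm4 read 10.06, 10.09 and 10.64 and stood 1.47-fold higher at passage 18 than at 14. Mcm6 read 11.55, 11.56 and 11.63, the narrowest spread of all members (SD 0.05, n = 3). Its second detected probe set told otherwise, with 10.03, 10.73 and 10.08, a 1.63-fold higher level at passage 14 than at 13, so the flat reading of Mcm6 holds for 1 of its 2 detected probe sets. Both detected Mcm4 probe sets were nearly level between passages 13 and 14, with differences of 0.03 and 0.06.

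The factors that activate the helicase had larger steps. Mcm10, which helps start unwinding, read 6.97, 8.11 and 6.27: passage 14 exceeded 13 by 2.20-fold and 18 by 3.56-fold. A dimmer Mcm10 probe set, under the floor at passage 18, read 6.62, 6.28 and 5.20, against that order between 13 and 14. The dimmest Mcm10 probe set, also under the floor at passage 18, read 5.98, 6.54 and 5.12, in the order of the brightest. Gins1, a subunit of the GINS complex, read 7.89, 8.97 and 7.68, 2.13-fold higher at 14 than at 13 and 2.46-fold lower at 18 than at 14. Gins2 read 9.21, 9.90 and 9.02 and kept that order with smaller steps. Gins3 read 7.20, 7.32 and 7.65 and was highest at passage 18, whereas its dimmer detected probe set was nearly equal at 14 and 18 (log2 difference -0.01). The GINS subunit outside the list, Gins4, read 10.66, 10.47 and 10.77, also highest at 18. Cdc45, the helicase cofactor that joins GINS, read 6.51, 6.95 and 5.96, a 1.99-fold lower level at passage 18 than at 14.

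Of the clamp and its loader, Pcna, the sliding clamp, read 12.04, 12.32 and 11.74. Passage 14 was 1.21-fold above 13, and the log2 difference of passage 18 minus 14 was -0.58. Among the loader subunits, Rfc3 read 7.90, 8.48 and 7.46, the widest range of the 5, and was 2.02-fold lower at passage 18 than at 14. Rfc5 read 8.38, 9.07 and 8.37. Rfc1 read 8.18, 8.66 and 8.45, and Rfc4 8.37, 8.86 and 8.68, both between their other levels at passage 18. Rfc2 was nearly level, at 9.39, 9.52 and 9.62, and its 3 detected probe sets differed in direction between passages 13 and 14 (0.13, -0.06 and 0.10).

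The 6 polymerase and primase genes on the list were the most uniform group of members. All 6 were higher at passage 14 than at 13, by 0.39 to 0.74 on the log2 scale, and all 6 were lower at 18 than at 14. The primase subunits Prim1, which makes the RNA primer, and Prim2 read 9.15, 9.89 and 9.22, and 8.70, 9.28 and 8.65. Pole, the catalytic subunit of the leading-strand polymerase, read 7.04, 7.79 and 7.05, and Pold1, that of the lagging-strand polymerase, 8.28, 8.92 and 8.26. Pola1 and Pola2 of the polymerase that extends primers read 7.09, 7.48 and 6.80, and 6.87, 7.43 and 6.88. For the brightest probe sets of Pole, Pold1, Pola2, Prim1 and Prim2, passages 13 and 18 differed by at most 1.05-fold. By these probe sets passage 14 stood 1.47-fold to 1.67-fold above passage 13. The second detected Pold1 probe set read 5.81, 6.67 and 6.25, 1.36-fold higher at passage 18 than at 13. Those of Prim1 and Prim2 were lower at 18 than at 13, by 1.07-fold and 1.13-fold. Polymerase subunits outside the list were split. Pold2, Pold3 and Pole2 were higher at passage 14 than at 13 (0.57, 0.75 and 0.71) and lower at 18 than at 14. Pold4, Pole3 and Pole4 went the other way in both steps, with differences of passage 14 minus 13 of -0.28, -0.31 and -0.09.

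The single-strand binding protein RPA was split among its subunits. Rpa1, the largest, read 11.49, 11.88 and 11.33 and was highest at passage 14. Rpa2 read 9.38, 8.99 and 9.15, 1.31-fold lower at passage 14 than at 13, the largest difference of any member in that direction. Its second detected probe set read 6.54 and 6.48 at passages 13 and 14, also lower at 14 but by 1.04-fold, and it was lowest at passage 18, 1.40-fold below 14. Rpa3 read 9.01, 9.19 and 9.25. On the lagging strand, Fen1, the nuclease that trims Okazaki fragments, read 11.87, 12.25 and 11.97, and Lig1, the ligase that joins them, read 8.89, 9.39 and 8.82.

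Nucleotide supply held the widest and one of the narrowest spreads of all members. Tk1, the thymidine kinase of the salvage route, had intensities of 131.8, 376.8 and 51.4, or 7.04, 8.56 and 5.68 on the log2 scale (SD 1.44 over the 3 cultures). Its passage 14 level was 2.86-fold that of passage 13 and 7.33-fold that of passage 18, where it lay close to the floor of 5.48. Tyms, thymidylate synthase, was dim, at 5.99, 6.58 and 5.49, the last of these at the floor, and its other 3 probe sets were below the floor on all arrays. Dut, which removes dUTP, read 10.40, 10.90 and 10.33. Rrm1, the large subunit of ribonucleotide reductase, read 10.63, 10.99 and 10.60. Rrm2, its small subunit, was level at 11.87, 11.92 and 11.81 (SD 0.06) by its brightest probe set. Its others read 11.12, 11.37 and 11.14, and 10.55, 10.77 and 10.30, the last of these 1.39-fold lower at passage 18 than at 14. By their brightest probe sets, Tk1 and Rrm2 thus had a wide and a narrow spread.

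Of the chromatin genes, Uhrf1, which brings the maintenance DNA methyltransferase to newly copied DNA, read 7.07, 8.34 and 6.86. Passage 14 was 2.41-fold above 13 by this probe set and 1.38-fold by its other one. Chaf1b, a subunit of the histone chaperone CAF-1, read 8.13, 8.80 and 7.66, and was 2.21-fold lower at passage 18 than at 14.

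Of the 3 regulators of the G1/S step, Ccne2 had the commonest order of the members and E2f1 and Ccne1 did not. E2f1, a transcription factor that activates replication genes, read 8.21, 8.06 and 7.34. Relative to passage 13 it was 1.11-fold lower at passage 14 and 1.83-fold lower at 18. The dimmer E2f1 probe sets, detected on 2 arrays and on 1, had the same order. Ccne1, cyclin E1, read 8.14, 7.81 and 8.04 by its brightest probe set and 7.34, 7.68 and 7.08 by the other, so its direction between passages 13 and 14 depended on the probe set. Ccne2, cyclin E2, read 6.98, 7.26 and 6.77. The median difference of passage 14 minus 13 over the 3 genes was -0.15.

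**Figure D3:**
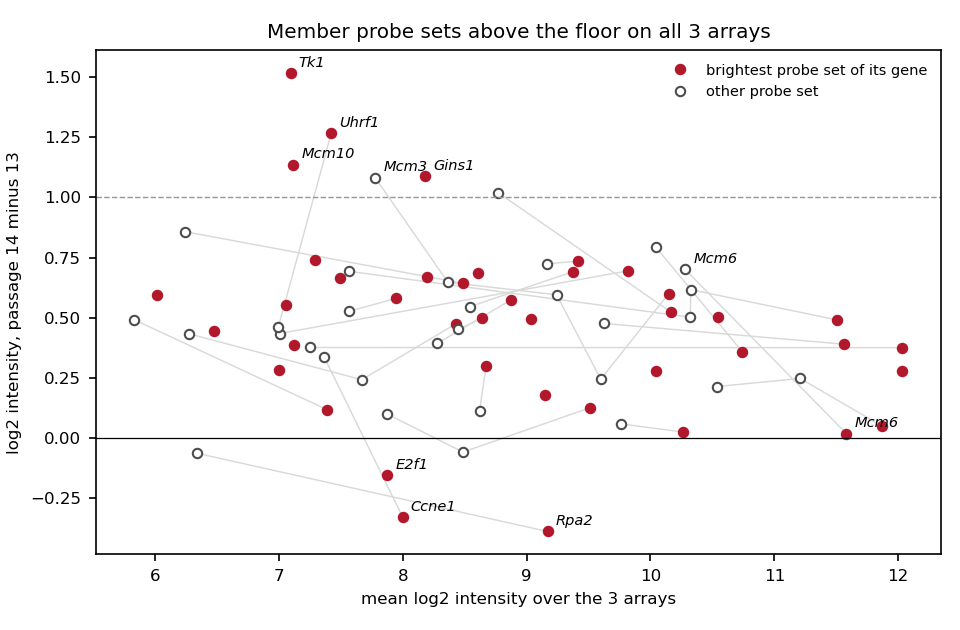
Difference of log2 intensity, passage 14 minus 13, against mean log2 intensity for the 72 member probe sets detected on every array (filled, the brightest of each gene; open, its others; grey lines join probe sets of 1 gene). Of the 72, 67 lie above 0 and 6 reach the dashed 2-fold line. The Rfc2 and Ccne1 probe sets disagree in direction, and those of Mcm6 differ in size.

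Each gene was read by 1 to 5 probe sets, 93 in all, of which 72 passed the floor on every array. Of these 72, 67 were higher at passage 14 than at 13, 61 lower at 18 than at 14, and 35 higher at 18 than at 13. Mcm2, Gins2, Pold1, Rrm1, Rrm2 and Uhrf1 were lower at 18 than at 13 by the brightest probe set and higher by another detected one. Cdt1, Mcm3, Mcm5, Rfc1, Rfc2 and Prim1 showed the reverse. In 21 of the 23 members with more than 1 such probe set, all had the same direction between passages 13 and 14, the exceptions being Rfc2 and Ccne1. The size varied more: within a gene the difference ranged over a median of 0.20 and at most 0.84 on the log2 scale. Mcm5 was 1.44-fold higher at passage 14 by its brightest probe set and 2.03-fold by its other detected one, and Mcm3 ranged from 1.19-fold to 2.12-fold. Of the 41 members, 19 were represented by a probe set named _s_at, _x_at or _a_at, types that can match more than 1 transcript. The median difference was 0.50 over 29 such probe sets and 0.46 over the other 43.

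No member passed the test for a trend with passage number (limma, 0 of 41 members and 0.0% of 9884 genes at an adjusted p under 0.05). At an unadjusted p under 0.05 there were 0 members, where 3.54% of all genes passed. The slopes ran from -0.40 log2 units per passage for Tk1 (SE 0.20, limma adjusted p = 0.896) to 0.12 for Mcm4 (SE 0.05, limma adjusted p = 0.896), with a median of -0.05 and 30 of 41 below 0. E2f1 had the smallest unadjusted p (0.0528, limma, slope -0.18, SE 0.06). The SD over the 3 cultures had a median of 0.32 for members and 0.25 for all genes tested. A trend in passage number cannot describe genes that are highest in the middle array, and without the passage 18 array the median slope was 0.49, which is the difference of passages 14 and 13.

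Other genes of replication and G1/S, 74 listed and 71 measured, showed the same order with more exceptions. Of the 68 above the filter, 52 had a higher level at passage 14 than at 13 and 16 a lower one (median difference 0.35), and 45 were highest at 14. At least 2-fold higher were 5 genes and at least 2-fold lower were 0. The largest differences among detected genes were those of Ccna2, cyclin A2 of S phase and G2 (9.50, 11.14 and 9.02), Nasp, a histone chaperone (8.73, 10.27 and 8.57), Fbxo5, an inhibitor of the anaphase-promoting complex (6.92, 8.24 and 6.25), and Skp2, which targets p27 for degradation (8.46, 9.46 and 8.37). At the other end were Tfdp2, an E2F partner (8.50, 7.89 and 8.25), the D cyclin genes Ccnd2 (12.06, 11.53 and 12.42) and Ccnd3 (9.33, 8.92 and 8.97), and E2f5, an E2F of the repressor class (6.18, 5.76 and 7.05). Those 4 were lower at passage 14 than at 13 by 0.42 to 0.61 in log2 units. Recql4, Dna2, Tk2, E2f2, E2f4, Exo1 and Brca2 were not detected on all arrays. In the passage trend 0 of the 68 passed in limma, and 1 had an unadjusted p under 0.05.

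**Figure D4:**
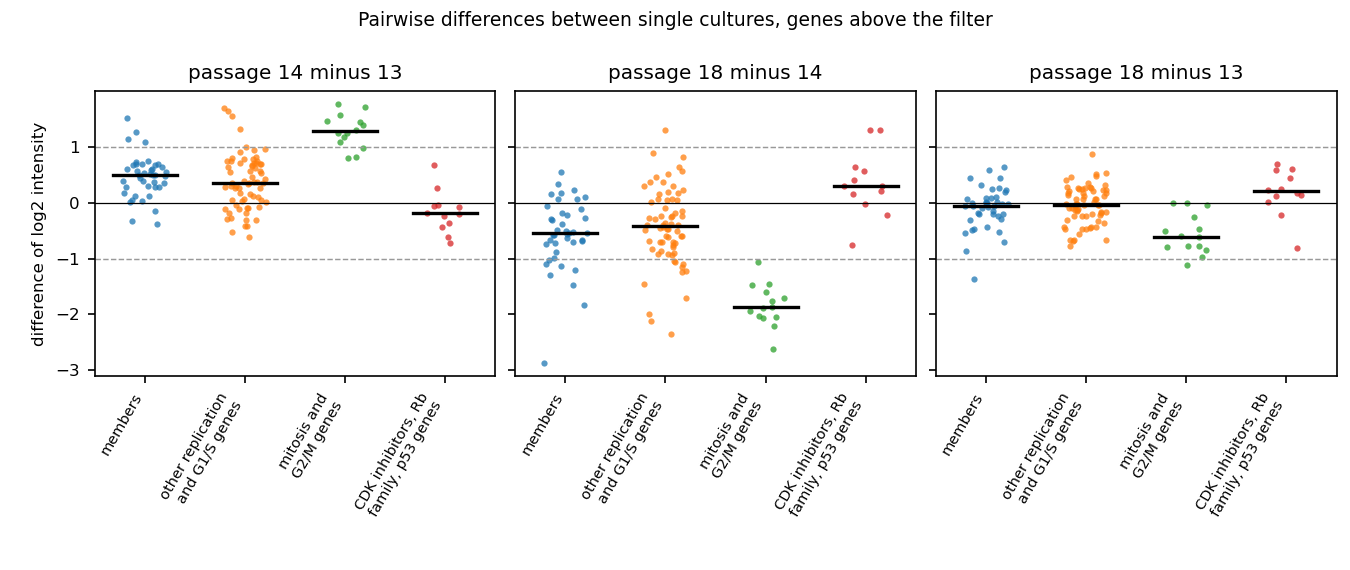
Differences of log2 intensity between pairs of single cultures for members (41 genes), other replication and G1/S genes (68), mitosis and G2/M genes (14) and CDK inhibitors, Rb family and p53 genes (12), with a black bar at each median and dashed lines at 2-fold. Between passages 13 and 14 the medians are 0.49, 0.35, 1.28 and -0.19.

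Set beside mitotic genes, the members had smaller median steps in the same direction between passages 13 and 14 and between 14 and 18. In all 14 measured mitosis and G2/M genes passage 14 exceeded passage 13 (median difference 1.28), by at least 2-fold in 11 of 14, against 4 of 41 members. From passage 14 to 18 all 14 were at least 2-fold lower (median -1.87), against 8 of 41 members and a median of -0.55. All 14 were also lower at passage 18 than at 13 (median -0.61), against 25 of 41 members and a median of -0.06. Members and mitotic genes were read on the same arrays and the difference between the lists was not tested. Mki67, the marker of cycling cells, read 7.78, 9.35 and 7.30, a span wider than that of any member but Tk1. Of 12 genes encoding CDK inhibitors, Rb family members and p53 pathway proteins, 10 had a lower level at 14 than at 13 (median -0.19). Among them Rb1 read 6.95, 6.33 and 7.63 and its relative Rbl2 7.57, 6.85 and 8.15, both lowest at passage 14, as was Cdkn1a (p21) at 11.34, 11.26 and 11.56. The third Rb family gene, Rbl1, read 7.32, 7.58 and 7.56, and Cdkn2a, a CDK inhibitor gene, read 7.59, 8.27 and 8.04, both highest at passage 14.

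Members with E2F letters in the promoter window, shown above for 9 of them, overlapped in the size of the step with members without them. The difference between these groups was not tested. The 12 tested members with a match had a median difference of passage 14 minus 13 of 0.55 (range 0.02 to 1.27), and the 22 with a window but no match had a median of 0.42 (range -0.39 to 1.52). All 12 with a match were higher at passage 14, as were 19 of the 22 without. Rpa2, E2f1 and Ccne1, the members lower at 14, had no match. Nor had Tk1, which had the largest step, or Mcm10, while Mcm6, with the most matches, had the difference smallest in size by its brightest probe set. By the second detected Mcm6 probe set that difference was 0.70.

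Properties of the arrays and of the cultures also differed. The passage 18 array had a Gapdh 3′/5′ control ratio of 19.4, against 8.59 and 7.10 at passages 13 and 14, and an Actb ratio of 1.42, against 1.18 and 1.20. The difference of passages 14 and 13 does not use the passage 18 array, but the Gapdh ratios of those arrays were not equal either. The part of these ratios in the differences between any of the arrays was not tested. Endothelial markers were present, with 13 of 14 above the floor on all arrays, among them Pecam1, Cdh5, Flt4 and Pdpn. Prox1 was above it at passages 13 and 18 and below it at 14 (6.20, 5.11 and 5.60 on the log2 scale). Summed over the 14 markers, intensity was 19613, 18685 and 13139. Within that sum Lyve1, Sox18 and Kdr were at least 2-fold higher at passage 14 than at 13, and Pdpn, Foxc2 and Prox1 at least 2-fold lower. Lyve1 was 18.0-fold lower at passage 18 than at 14. The summed intensity of 5 fibroblast markers was 508, 341 and 2085, with 2 above the floor on all arrays and Pdgfra and Lum below it on all. That of 5 mural markers was 1627, 446 and 5560, most of it from Acta2 alone (1467, 308 and 5289), with 2 above the floor throughout and Rgs5 and Cspg4 below it on all. Of 4 leukocyte markers Ptprc, Itgam and Cd3e were below the floor on all arrays and 1 above it on all (sums 268, 143 and 84.6), and of 4 keratinocyte markers Krt14 and Cdh1 were below it and 2 above (sums 210, 156 and 194). The fibroblast and mural sums were lowest at passage 14, where the members were highest, and highest at passage 18, though Des and Cspg4 were lowest there. Of the fibroblast markers, only Col1a1 (263, 92.8 and 1228) and the dim Dcn were lower at passage 14 than at 13. Col3a1 (199, 203 and 776), Pdgfra and Lum were not. The part of the fibroblast and mural markers in the members' differences was not tested.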

How the data were processed

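Amplified, biotin-labelled cDNA from 3 cultures (1 group, n = 3) was hybridised to 1-colour Affymetrix mouse arrays, per the labels' protocols. The deposited values are linear signal intensities, 1 for each probe set on each array. MAS5 appears in the submitters' processing notes; its role is not given in the sources used here. Array medians were 25.7, 26.0 and 26.3, so values were not normalized again.

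Of 45101 probe sets, 34945 had 1 gene in the platform annotation, 932 several and 9160 none, and 64 were controls. Symbols were updated by Entrez identifier through RefSeq GRCm38.p6 (34741 matched). Intensities were taken to log2, and a gene was represented by its brightest probe set. Genes whose mean lay above the mean floor were fitted on passage number with limma 3.58.1 in R 4.3.3 (lmFit, eBayes with an intensity trend, 1 residual degree of freedom, Benjamini-Hochberg over all 9884). The fit was first tested on simulated data in which all genes had the same spread. There it called 22.5% of 200 genes given a slope of 0.2 per passage and 100% of those given 0.5. In the real data the SE of member slopes ran from 0.04 to 0.20, so these shares need not hold for genes of wider spread. Most member slopes were smaller than 0.2 in size. A pairwise difference is of single arrays and has no test; 2-fold is the limit used. Precision is limited by the number of arrays.

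Members and lists were chosen with earlier results of these data known. All members were named; of the other replication genes, the 4 largest and 4 smallest differences and those not detected. Alternatives are given in the closing section. Genes with several-gene or no probe sets were not analysed here.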

Additional observations from a re-analysis of the deposited data

How the results depend on the processing

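With each gene taken as the median of its probe sets, the members at least 2-fold higher at passage 14 than at 13 numbered 2 (4 as reported), those at least 2-fold lower at 18 than at 14 numbered 4 (8), those at least 2-fold lower at 18 than at 13 numbered 2 (1), and the median member level was 8.02 (8.67). Leaving out 1 array moved the median slope between -0.14 and 0.49 (-0.05 with all 3), while the median level stayed between 8.57 and 8.77. The number of members detected could only stay at 41 there, because every member was above the floor on all arrays or on none. Of 77 alternative values, those fixed detection counts among them, 71 stayed near the reported value and 6 moved. The limit was 1.5 times the reported count, or 1 SD over the arrays from the reported median. For slopes it was that SD divided by the span of passages. No median difference between passages changed sign. Members highest at passage 14 numbered 32 or 33 under every alternative of probe sets, normalization, offset and filter, and 0 members passed the passage trend under all of them. With the floor at the highest reference gene, 28 members were detected. No paired analysis was possible because there is 1 group.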
